A study of Homo sapiens with 4 samples.

Results

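The end of the long arm of chromosome 7 around BRAF was examined in A375 melanoma cells as a block of neighbouring genes. Members were the protein-coding genes on chromosome 7 whose lowest start lay from 140 to 160 Mb (GRCh38) and whose mean over 4 libraries was at least 1 CPM (count divided by the library's total count, times 1000000). BRAF, PDIA4, INSIG1, GALNT11, ABCB8 and ABCF2 lie in the same stretch but were set aside by name, and their values are given for comparison only. Of 151 protein-coding genes in the window, 78 reached 1 CPM, which left 72 members out of 62649 annotated genes. The stretch had drawn attention because its transcripts were higher in the resistant cells of these same libraries, so the fold changes of the members are a description and carry no test.

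A375 is an established human melanoma line with an activating mutation in BRAF. The resistant group (2 libraries) came from A375 cells kept in vemurafenib, which blocks the kinase made by mutant BRAF, at doses that were doubled weekly between 0.1 and 6.4 µM. Parental A375 cells were the control group (2 libraries), and the labels do not say whether drug was present at harvest. Both groups share the same parental line and BRAF mutation, the number of resistant clones is not given, and no label says that the 2 libraries of a group came from separate cultures, so any spread between them may be technical.

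Genes that lie side by side on a chromosome share the DNA copy number of their segment, while each answers to its own promoter and enhancers. This stretch is known for BRAF, for the histone methyltransferase genes EZH2 and KMT2C, for the mTORC1 activator RHEB and for a tight cluster of zinc finger genes. It also holds families used by other cell types, including taste receptors, olfactory receptors, trypsinogens and the GIMAP GTPases of lymphocytes. RNA counts do not measure copy number, and no DNA measurement was analysed here.

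Assigned counts totalled 68022689 and 85197524 in resistant replicates 1 and 2 and 72290468 and 87178097 in control replicates 1 and 2. The deposited files of the resistant libraries carry sample numbers (5 and 6) that differ from those in their labels (3 and 4); files were assigned to libraries by deposited record, and a mix-up was not tested for. All counts of control replicate 1 were even numbers (0 odd values). This library also stood furthest from the others: over 10088 genes, Pearson's r of log2 CPM with the resistant libraries was 0.912 and 0.921, against 0.956 and 0.965 for control replicate 2. The controls had an r of 0.961 with each other, so control replicate 2 was slightly closer to resistant replicate 2. The resistant libraries had an r of 0.978 with each other. The melanocytic markers SOX10 and ERBB3 were abundant, at a mean of 922 and 382 CPM, whereas the pigment genes PMEL and MLANA had 1.48 and 1.53 CPM and TYR and DCT 0.163 and 0.192 CPM. S100B had a mean of 17.0 CPM. MITF had 12.8 and 22.7 CPM in the resistant libraries and 41.8 and 22.6 CPM in the controls (log2 -0.86, edgeR adjusted p = 0.371). SOX10 differed between the controls, at 697 and 1141 CPM. Of these 8 markers, 6 had a negative log2 fold change and 2 a positive one, and edgeR called 0. Leukocyte markers summed to 1.79 and 0.974 CPM in the resistant libraries and 0.387 and 1.76 CPM in the controls, with CD3E at a mean of 0.0287 CPM. Endothelial markers summed to 3.15 and 2.23 CPM in the resistant libraries and 3.43 and 3.10 CPM in the controls, and fibroblast markers to 12.2 and 10.1 CPM in the resistant libraries and 14.7 and 11.0 CPM in the controls. The fibroblast sum was mostly COL1A1 (a mean of 6.86 CPM); LUM, DCN and PDGFRA had both resistant libraries below both controls, and LUM, at a mean of 1.03 CPM, was furthest apart (log2 -2.83, edgeR adjusted p = 0.0569, DESeq2 adjusted p = 0.000129). Keratinocyte markers summed to 61.1 and 86.8 CPM in the resistant libraries and 48.7 and 62.2 CPM in the controls, nearly all of it KRT10. KRT14, at a mean of 1.07 CPM, was lower in resistant cells (log2 -2.56, edgeR adjusted p = 0.0355). The part of these markers in the results was not tested.

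As a group the members were close to 2 times as abundant in resistant cells. The median log2 fold change, resistant over control, was 0.96 (1.94-fold), and the middle of the distribution ran from 1.65-fold to 2.26-fold. For the 12799 other protein-coding genes of at least 1 CPM the median was -0.01, with quartiles of -0.23 and 0.20. In all, 69 members had a positive log2 fold change and 3 a negative one. A fold change above 2 was seen in 29 members, and 13 members lay between 1.9-fold and 2.1-fold. The 10 members that share at least 15% of their exonic bases with another gene, where unstranded counting drops reads, had a median of 0.99, against 0.93 in the other 62.

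The shift was alike in both libraries of each group. Relative to each gene's own mean log2 CPM, the median member stood at 0.47 and 0.46 in the resistant libraries, against -0.45 and -0.48 in the controls. The summed level of the members was 6098 and 6385 CPM (scaled with TMM factors, as are all CPM below) in the resistant libraries, against 3541 and 3408 CPM in the controls, a ratio of 1.80. They took 0.637% and 0.620% of all counts in resistant cells, against 0.351% and 0.339% in control cells. In bulk libraries, more RNA per cell and more cells carrying the RNA cannot be told apart.

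Both resistant libraries lay above both controls in 64 members, below both in 1 and overlapped them in 7. Among all 24961 tested genes the share lying above was 22.4% and the share lying below 22.2%. The edgeR quasi-likelihood test with Benjamini-Hochberg adjustment called 25 members higher and 0 lower, where it called 0.577% of all tested genes higher and 0.513% lower. Since the block was picked from this contrast, nothing is read from these counts. They also moved with the tool and the libraries used. DESeq2 called 51 members higher, and 2.51% of all tested genes. edgeR called 10 members higher without resistant replicate 1 (0.397% of all tested genes) and 0 without resistant replicate 2 (0.0259%). It called 44 without control replicate 1 (1.5%), 42 without control replicate 2 (4.31%) and 0 with the replicate number as a block (0.132%).

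**Figure D1:**
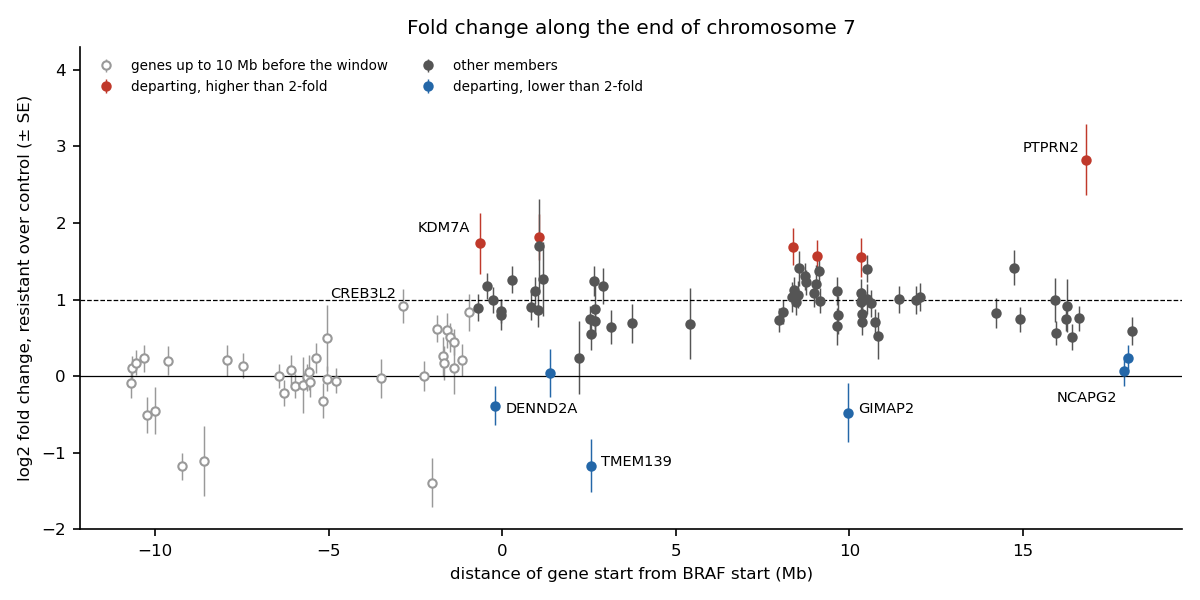
Log2 fold change, resistant over control, with its standard error (vertical axis) against the distance of each gene's start from that of BRAF in Mb (horizontal axis). Filled points are the 72 members, open points the genes of the 10 Mb before the window (CPA4, at -5.24, is off the axis), and the dashed line marks a doubling; most members sit between 0.5 and 1.5, most open points near 0.

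Along the chromosome, stretches with a median near a doubling alternated with somewhat lower ones, and expressed genes were unevenly spaced. The 14 members that start between 140 and 142 Mb had a median log2 fold change of 1.05, and the 10 between 142 and 144 Mb one of 0.68. Between 144 and 148 Mb expressed genes were sparse, with CNTNAP2 at 0.68. The next start after CNTNAP2 is that of CUL1, 2.58 Mb further on.

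The zinc finger cluster and its neighbours at 148 to 150 Mb held 15 members with a median of 1.12, every one of them positive. The 15 members at 150 to 152 Mb had a median of 0.95, the 6 at 152 to 156 Mb 1.00 and the 7 at 156 to 158 Mb 0.76. The last 3, beyond 158 Mb, had a median of 0.23. Across the 72 members, the log2 fold change had a Spearman correlation of -0.14 with position, of -0.19 with mean CPM and of -0.07 with gene length; the genes share libraries, so these are given as a description.

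Levels per gene length (TPM, counts per gene length scaled to sum to 1000000 per library) followed the same direction. The median TPM was 77.7 in resistant cells and 40.2 in control cells at 150 to 152 Mb, the richest stretch. Over all members the median was 35.7 and 35.0 TPM in the resistant libraries, against 17.8 and 19.2 TPM in the controls.

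**Figure D2:**
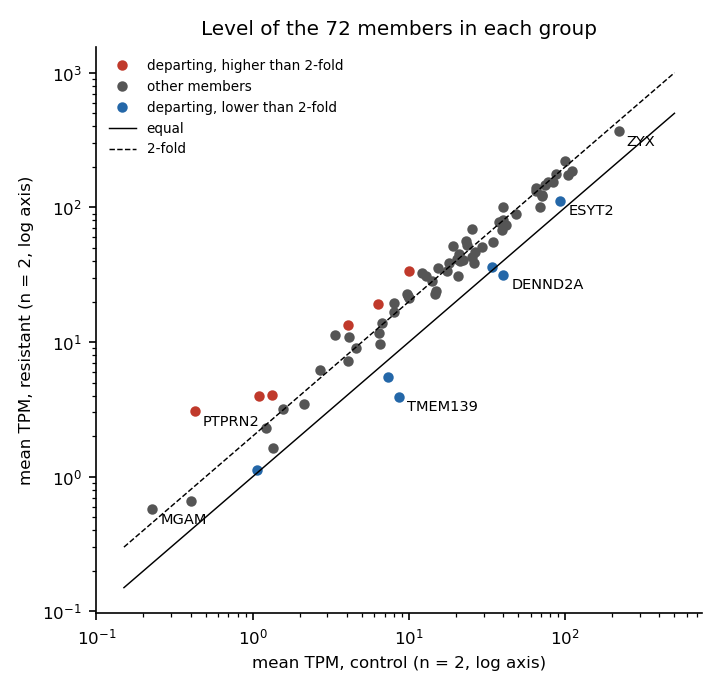
Mean TPM in resistant cells (vertical, log axis) against mean TPM in control cells (horizontal, log axis) for the 72 members, n = 2 libraries per group. The solid line marks equal levels and the dashed line a doubling; from MGAM at under 1 TPM to ZYX at 368 TPM in resistant and 219 TPM in control cells, most points follow the dashed line, and the departing members lie off it on either side.

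Members of lower level had a similar centre but a wider scatter, and the reason was not tested. In the 50 members of at least 20 CPM the median log2 fold change was 0.93 with an SD of 0.35 across genes, and 47 of them had both resistant libraries above both controls. In the 22 members under 20 CPM the median was 1.01 with an SD of 0.84. The other protein-coding genes of at least 20 CPM (7832) had a median of -0.01 and an SD of 0.40, and in 21.5% of them both resistant libraries lay above both controls.

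At the lower edge the elevation did not start sharply at 140 Mb. PARP12, a PARP family gene of the interferon response, is the first member, with 61.2 and 58.5 CPM in the resistant libraries against 29.2 and 35.3 CPM in the controls (log2 0.89 ± 0.18, SE). It is followed by KDM7A, a histone lysine demethylase gene (1.73), SLC37A3, a gene of a sugar-phosphate carrier family (1.18), MKRN1, which encodes a ubiquitin ligase (0.99), DENND2A (-0.39) and ADCK2 (0.85). DENND2A stood apart from the other 5, which were near or above a doubling.

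Before 140 Mb the values thinned out over a few Mb. TBXAS1, the thromboxane synthase gene just outside the window, had 9.50 and 10.6 CPM in resistant cells, against 5.09 and 6.20 CPM in control cells (log2 0.83 ± 0.24, SE). The next genes outward were HIPK2 (0.21), LUC7L2 (0.44), FMC1 (0.10), UBN2 (0.51) and TTC26 (0.60). Of these 6 genes, TBXAS1, LUC7L2, UBN2 and TTC26 had both resistant libraries above both controls, while HIPK2 and FMC1 overlapped. Among all tested genes, 22.4% lay above in this way.

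Further out, CREB3L2, the gene of a membrane-bound transcription factor of the secretory pathway, had 194 and 224 CPM in resistant cells against 89.1 and 132 CPM in control cells (log2 0.92). KIAA1549 had 78.7 and 97.1 CPM in resistant cells against 54.9 and 59.7 CPM in control cells (0.62). Both were picked out after their values were seen. Around them stood genes near 0, such as TRIM24 (0.00), PTN (-0.03) and MTPN (-0.06). ATP6V0A4, of the vacuolar proton pump, lies between CREB3L2 and KIAA1549 and went the other way, with 1.08 and 1.08 CPM in resistant cells against 3.21 and 2.47 CPM in control cells (-1.39).

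Taken as a whole the 38 expressed coding genes at 130 to 140 Mb had a median log2 fold change of 0.06. It was 0.17 in the 21 genes at 135 to 140 Mb and -0.09 in the 17 at 130 to 135 Mb. In 12 of the 38 (31.6%) both resistant libraries lay above both controls and in 8 (21.1%) below, where 22.4% of all tested genes lay above and 22.2% below. The 492 genes of chromosome 7 below 130 Mb had a median of -0.01.

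At the upper edge, towards the end of the chromosome, the last 6 members were uneven. UBE3C, a ubiquitin ligase gene, had 265 and 239 CPM in the resistant libraries against 177 and 176 CPM in the controls (log2 0.51). DNAJB6, which encodes a co-chaperone of HSP70, had 286 and 269 CPM in resistant cells against 160 and 169 CPM in control cells (0.76). In both genes the groups lay apart, yet below a doubling.

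Beyond them came PTPRN2 (2.82), NCAPG2 (0.06), ESYT2 (0.23) and DYNC2I1, a gene of the ciliary dynein-2 motor (0.59). DYNC2I1, the last member, had 42.7 and 39.1 CPM in resistant cells and 29.6 and 24.7 CPM in control cells. The largest value in the window, that of PTPRN2, and some of the smallest thus stood side by side at its end. PTPRN2 averaged under 1 CPM in the controls and became a member through the resistant libraries alone, so it had to be higher there.

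A member was taken as departing from a doubling if its log2 fold change was under 0.5 or over 1.5 and all 4 ratios of a resistant to a control library lay on the same side of 2-fold. This named 12 members, 6 on the high and 6 on the low side, and 58 of the 72 lay within 0.5 and 1.5.

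**Figure D3:**
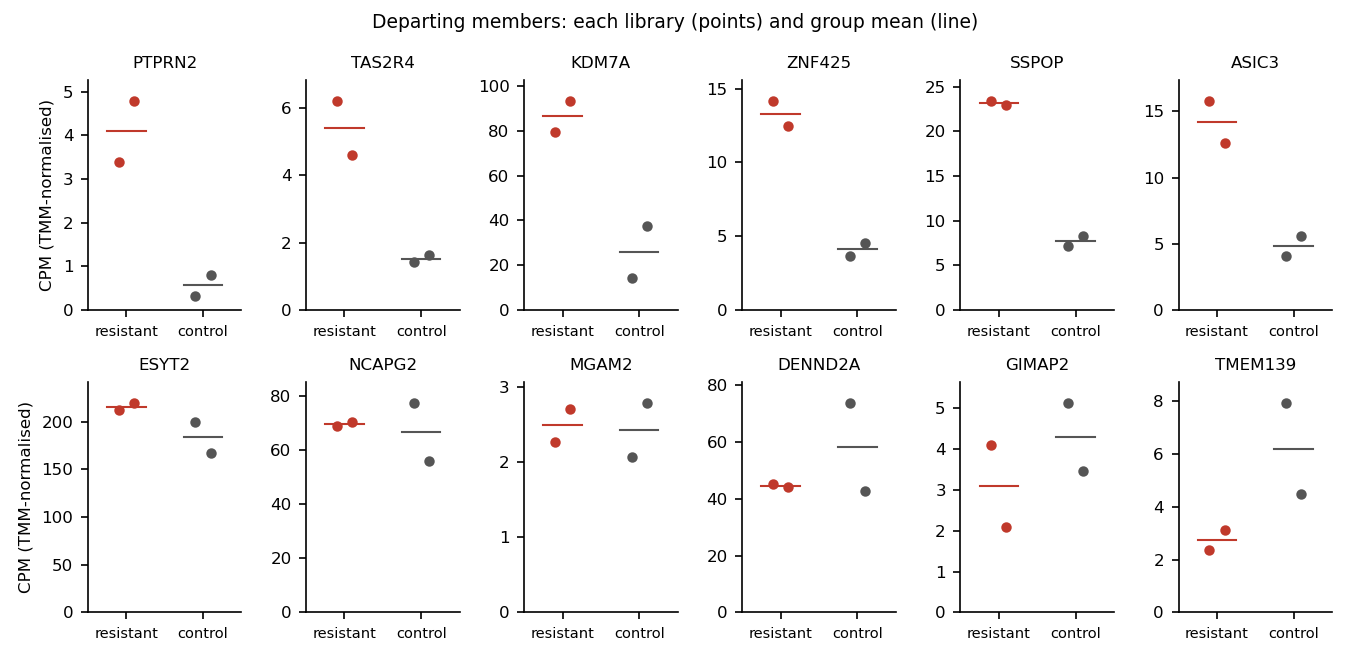
CPM scaled with TMM factors in each library (points) with the group mean (line) for the 12 departing members, resistant at left and control at right, axes from 0. In the upper row both resistant libraries lie more than 2-fold above both controls, as the rule for these members asks. In the lower row the groups overlap or nearly meet, except for TMEM139, where both resistant libraries are lower.

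The farthest on the high side was PTPRN2, which encodes a receptor-type phosphatase of dense-core secretory vesicles. PTPRN2 had 3.39 and 4.79 CPM in the resistant libraries, against 0.335 and 0.808 CPM in the controls. Since it reached the level threshold through the resistant libraries alone, its direction was fixed by the choice of members. The log2 fold change was 2.82 ± 0.46 (SE), a 7.08-fold difference that rested on 24 and 70 counts in the controls. Without control replicate 2 it was 3.61 and without control replicate 1 it was 2.34, so its size depends on the control library used.

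KDM7A, the sole departing member above 20 CPM on the high side, had 79.4 and 93.3 CPM in the resistant libraries, against 14.3 and 37.6 CPM in the controls (log2 1.73 ± 0.40, SE). The controls were further apart from each other than the resistant libraries, and the value was 2.60 without control replicate 2 and 1.2 without control replicate 1. TAS2R4, a bitter taste receptor gene, had 6.20 and 4.61 CPM in resistant cells against 1.43 and 1.63 CPM in control cells (log2 1.82). Its neighbour TAS2R5, of the same family, had 4.52 and 2.43 CPM in resistant cells against 0.419 and 1.71 CPM in control cells, and its log2 fold change was 3.05 without control replicate 2 and 1.02 without control replicate 1.

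ZNF425, a zinc finger gene of the cluster, had 14.2 and 12.4 CPM in the resistant libraries, against 3.69 and 4.56 CPM in the controls (log2 1.69 ± 0.24, SE). SSPOP, related to the large secreted protein SCO-spondin, had 23.4 and 23.0 CPM in resistant cells against 7.21 and 8.35 CPM in control cells (1.57). ASIC3, which encodes an acid-sensing ion channel, had 15.8 and 12.6 CPM in resistant cells against 4.11 and 5.57 CPM in control cells (1.55). In these 3 genes the fold change was near a tripling. The rule that named them asks for all 4 ratios above 2-fold, so a gap between their groups was set by that choice.

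On the low side, 3 members had a fold change below 1. TMEM139, a small membrane protein gene, had 2.35 and 3.13 CPM in the resistant libraries, against 7.91 and 4.47 CPM in the controls (log2 -1.17 ± 0.35, SE). It was the one member with both resistant libraries below both controls, and 49.5% of its exonic bases overlap another gene, where counting drops reads. GIMAP2, of the lymphocyte GTPase family, had 4.08 and 2.08 CPM in resistant cells against 5.11 and 3.45 CPM in control cells (-0.48), with overlapping groups.

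DENND2A, which encodes an exchange factor for Rab GTPases, lies next to genes near a doubling. It had 45.1 and 43.9 CPM in the resistant libraries, against 73.6 and 42.8 CPM in the controls (log2 -0.39 ± 0.25, SE). The controls straddled the resistant values, and without control replicate 1 the log2 fold change was 0.06. Even so, no pairing of a resistant with a control library reached 2-fold.

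NCAPG2, a subunit gene of the condensin II complex that compacts chromosomes, had 69.0 and 70.6 CPM in resistant cells, against 77.5 and 56.2 CPM in control cells (log2 0.06 ± 0.20, SE). ESYT2, an extended synaptotagmin that tethers the endoplasmic reticulum to the plasma membrane, had 212 and 220 CPM in resistant cells against 200 and 167 CPM in control cells (0.23). These are neighbours at the end of the chromosome, and both are well expressed. MGAM2, related to the intestinal enzyme maltase-glucoamylase, had 2.27 and 2.71 CPM in resistant cells against 2.07 and 2.78 CPM in control cells (0.04). Of the 12 departing members, 9 stayed beyond their bound under every alternative tried; the exceptions were KDM7A, ASIC3 and SSPOP, at 1.2, 1.35 and 1.48 without control replicate 1.

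Closest to the member median were NUB1, CDK5 and ZNF282, at log2 0.95, 0.96 and 0.97. NUB1, whose product steers NEDD8 and ubiquitin-like proteins to degradation, had 192 and 234 CPM in the resistant libraries, against 103 and 117 CPM in the controls. CDK5, a cyclin-dependent kinase gene best known in neurons, had 49.1 and 51.2 CPM in resistant cells against 27.2 and 24.3 CPM in control cells. ZNF282 had 147 and 169 CPM in resistant cells against 80.7 and 81.1 CPM in control cells. In all 3 both resistant libraries lay above both controls, where 22.4% of all tested genes did so.

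To set departing members beside typical ones, 250 bases upstream of the start are printed for the 4 departing members of highest TPM with a RefSeq promoter (ESYT2, DENND2A, NCAPG2 and KDM7A) and for NUB1 and CDK5, from RefSeq on GRCh38.p14. Sequences run 5′ to 3′ on the gene's strand; capitals mark the motif TGACGTG, the core of the unfolded protein response element, found on either strand. The windows are ESYT2 at chr7:158829510-158829759, DENND2A at chr7:140640814-140641063, NCAPG2 at chr7:158704805-158705054, KDM7A at chr7:140176984-140177233 and CDK5 at chr7:151057898-151058147, all on the minus strand, and NUB1 at chr7:151341562-151341811 on the plus strand.
ESYT2: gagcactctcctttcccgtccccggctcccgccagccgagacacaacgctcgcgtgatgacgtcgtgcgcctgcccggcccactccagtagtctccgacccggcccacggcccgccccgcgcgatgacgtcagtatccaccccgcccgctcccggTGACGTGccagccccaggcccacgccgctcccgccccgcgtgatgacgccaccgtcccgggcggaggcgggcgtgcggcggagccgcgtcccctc
DENND2A: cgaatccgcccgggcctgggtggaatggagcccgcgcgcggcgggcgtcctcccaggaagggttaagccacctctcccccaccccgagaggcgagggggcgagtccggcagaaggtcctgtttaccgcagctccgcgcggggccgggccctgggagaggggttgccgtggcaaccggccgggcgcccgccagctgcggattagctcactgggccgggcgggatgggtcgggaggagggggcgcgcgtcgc
NCAPG2: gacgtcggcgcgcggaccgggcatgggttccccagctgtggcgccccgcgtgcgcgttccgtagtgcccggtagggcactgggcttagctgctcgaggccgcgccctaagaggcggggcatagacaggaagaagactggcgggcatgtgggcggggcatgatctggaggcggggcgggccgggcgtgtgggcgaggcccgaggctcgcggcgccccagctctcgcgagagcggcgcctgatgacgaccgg
KDM7A: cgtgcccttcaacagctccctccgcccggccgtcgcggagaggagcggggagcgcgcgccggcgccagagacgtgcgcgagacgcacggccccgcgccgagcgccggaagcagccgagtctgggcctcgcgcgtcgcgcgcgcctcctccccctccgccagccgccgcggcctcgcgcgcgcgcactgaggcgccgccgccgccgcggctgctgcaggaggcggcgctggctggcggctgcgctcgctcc
NUB1: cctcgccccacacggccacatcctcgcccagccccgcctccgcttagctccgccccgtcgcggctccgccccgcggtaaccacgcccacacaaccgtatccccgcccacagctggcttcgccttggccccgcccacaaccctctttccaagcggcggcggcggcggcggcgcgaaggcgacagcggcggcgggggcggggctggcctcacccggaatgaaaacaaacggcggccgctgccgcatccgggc
CDK5: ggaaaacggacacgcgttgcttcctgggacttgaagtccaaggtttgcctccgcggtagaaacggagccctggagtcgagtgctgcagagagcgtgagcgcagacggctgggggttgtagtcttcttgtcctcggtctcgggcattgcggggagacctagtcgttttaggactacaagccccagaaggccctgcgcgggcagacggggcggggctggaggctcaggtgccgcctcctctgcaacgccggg

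The promoters shown are all rich in G and C, from 64% in CDK5 and 74% in NCAPG2 to 81.6% in KDM7A, and hold 21 to 50 CpG pairs. A RefSeq promoter was matched for 61 of the 72 members. Their median GC content was 66.4% with 24 CpG pairs, against 58% and 11 CpG pairs over all 35116 promoters of this length. TGACGTG stood in 2 members' promoters (ESYT2 and RHEB), or 3.28%, against 1.68% of all promoters, and the E-box CACGTG, which ends in the same letters, in 9.84% against 6.34%. The TATA box TATAAA was found in 3.28% of members' promoters against 10.7% of all, the AP-1 motif TGACTCA in 3.28% against 4.2%, the NRF1 motif in 1.64% against 1.03%, and the amino acid response element TGATGCAA in 0 against 0.772%. The members are protein-coding genes chosen for a level of at least 1 CPM, whereas all promoters were taken without that choice. These sets are thus unlike, and nothing is read from their differences in composition or motifs. Both strands were searched, and a match is a description of letters, not of a site in use.

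Grouped by role, the members were spread over unrelated tasks. Of the 72, 61 fell in one of 9 role lists, and the median of every list was positive, between 0.70 and 1.16. The list of zinc finger proteins stood highest, and that of cytoskeleton, adhesion and cilia lowest. This contrast chose the members, so nothing is read from the counts of members with both resistant libraries above both controls, which was the case in 22.4% of all tested genes.

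**Figure D4:**
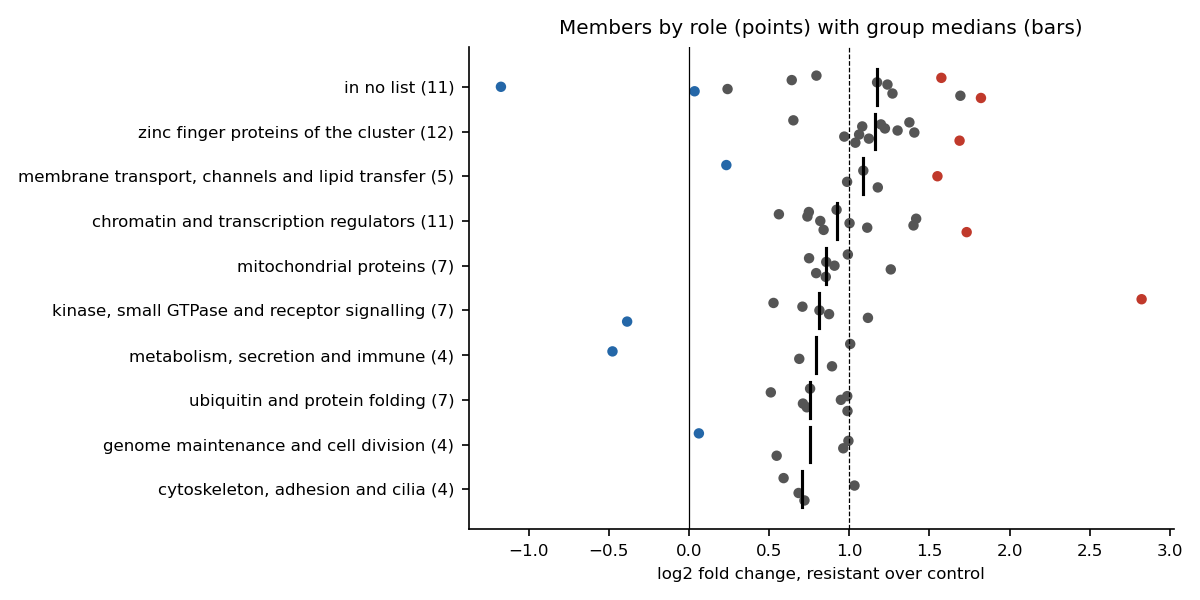
Log2 fold change, resistant over control, of each member (points) by role list, with the list's median (bar) and the number of members in brackets; red and blue points are the departing members on the high and low side. The medians of the 9 lists lie from 0.70 to 1.16 and that of the members in no list at 1.17, and the dashed line marks a doubling.

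Zinc finger genes of the cluster formed the largest list. These genes mostly encode DNA-binding repressors with C2H2 fingers, several with a KRAB domain. All 12 expressed members were positive, with a median of 1.16 and a range from 0.65 (ZNF775) to 1.69 (ZNF425). Each had both resistant libraries above both controls, where 22.4% of all tested genes did. The highest in TPM after ZNF282 were ZNF777, with 76.3 and 96.3 CPM in resistant cells against 34.5 and 35.6 CPM in control cells, and ZNF783, with 123 and 128 CPM in resistant cells against 36.9 and 57.6 CPM in control cells. ZNF212 followed with 37.8 and 39.5 CPM in resistant cells against 19.7 and 17.3 CPM in control cells. Related zinc finger genes share sequence, and reads that map to several places were left out of the counts.

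Chromatin and transcription regulators numbered 11, with a median of 0.92. In all of them both resistant libraries lay above both controls, where 22.4% of all tested genes did so. REPIN1, a zinc finger protein gene, was the highest of them in TPM, with 247 and 313 CPM in resistant cells against 134 and 125 CPM in control cells (log2 1.11). EN2, a homeobox gene of hindbrain and midbrain patterning, had 43.5 and 52.5 CPM in resistant cells against 14.9 and 21.0 CPM in control cells (1.42). EZH2, the catalytic subunit of Polycomb repressive complex 2, had 118 and 121 CPM in resistant cells against 69.0 and 64.4 CPM in control cells (0.84).

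KMT2C, which encodes a histone H3 lysine methyltransferase of enhancers, had 217 and 181 CPM in resistant cells against 101 and 97.8 CPM in control cells, almost exactly a doubling (log2 1.00). SMARCD3, a SWI/SNF subunit gene, had 42.2 and 44.9 CPM in resistant cells against 15.8 and 17.2 CPM in control cells (1.40). NOM1, a nucleolar protein gene, was at 0.75 and RBM33, an RNA-binding protein gene, at 0.74. LMBR1 at 0.56 is counted in this list although it encodes a membrane protein; it is known because a distant enhancer of SHH lies in one of its introns.

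Genes of mitochondrial proteins (7 members) ran from 0.75 to 1.26 with a median of 0.86. All 7 had both resistant libraries above both controls, against 22.4% of all tested genes. SSBP1, which binds single-stranded mitochondrial DNA, had 193 and 225 CPM in resistant cells against 137 and 93.6 CPM in control cells. FASTK, the founder of a family of mitochondrial RNA-processing proteins, had 131 and 138 CPM in resistant cells against 70.6 and 65.1 CPM in control cells. GSTK1, a glutathione transferase gene, was at 0.75 and ADCK2, a kinase-like gene linked to coenzyme Q, at 0.85. The highest of this list was MRPS33, a gene of the small mitochondrial ribosomal subunit, at 1.26.

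Genes of ubiquitin handling and protein folding (7 members) were positive throughout, with a median of 0.76. MKRN1 had 287 and 274 CPM in the resistant libraries, against 131 and 151 CPM in the controls. TMUB1, a ubiquitin-like membrane protein gene, had 93.5 and 105 CPM in resistant cells against 64.9 and 56.2 CPM in control cells (log2 0.71). CUL1, the scaffold of SCF ubiquitin ligases, had 135 and 139 CPM in resistant cells against 84.7 and 79.4 CPM in control cells (0.74). In each of these genes both resistant libraries lay above both controls, where 22.4% of all tested genes did so.

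Signalling genes (7 members) spanned the widest range, from DENND2A to PTPRN2, around a median of 0.81. RHEB, the small GTPase that switches on mTORC1, had 157 and 180 CPM in resistant cells against 108 and 97.7 CPM in control cells (log2 0.71). AGAP3, a gene of an Arf GTPase-activating protein, was at 0.81 and DENND11 at 1.12. PRKAG2, a regulatory subunit of AMP-activated protein kinase, had 30.6 and 56.1 CPM in resistant cells against 35.5 and 24.7 CPM in control cells (0.53), with overlapping groups.

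Transport genes (5 members) had a median of 1.09. SLC4A2, an anion exchanger gene, had 272 and 306 CPM in resistant cells against 122 and 150 CPM in control cells (log2 1.09), SLC37A3 was at 1.18 and ATP6V0E2, of the vacuolar proton pump, at 0.99. In the list of cytoskeleton, adhesion and cilia (4 members, median 0.70), ZYX encodes zyxin, a focal adhesion protein. It had the highest TPM of all members, with 280 and 377 CPM in resistant cells against 211 and 188 CPM in control cells (0.72). ACTR3B, an actin-related protein gene, was at 1.03 and CNTNAP2, a neuronal adhesion gene, at 0.68 with overlapping groups.

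Genome maintenance and cell division was a list of 4 members with a median of 0.76. XRCC2, a gene of homologous recombination, had 79.9 and 65.0 CPM in resistant cells against 33.2 and 39.5 CPM in control cells (log2 1.00). CDK5, best known in neurons, is counted in this list, as is CASP2, a caspase gene at 0.55. The list of metabolism, secretion and immune genes (4 members, median 0.79) held CHPF2, a chondroitin polymerising factor gene, with 156 and 117 CPM in resistant cells against 63.7 and 72.1 CPM in control cells (1.01). The 11 members in no list had a median of 1.17 and included the taste receptor genes and TMEM139.

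Several members encode 1 subunit of a complex whose other subunits lie elsewhere in the genome, and these partner genes played no role in choosing the members. Of 70 partner genes in 9 lists, 69 were tested, with a median log2 fold change of -0.03. The edgeR quasi-likelihood test called 0 of them after Benjamini-Hochberg adjustment (1.09% of all tested genes were called). DESeq2 called 6 (5.34% of all tested genes), of which 4 are condensin genes. An unadjusted edgeR p under 0.05 was seen in 9, with 8 lower in resistant cells, 5 of these from the condensin list. The share of all tested genes at that unadjusted threshold is not given here, so nothing is read from this count. Without control replicate 2, edgeR called 9 partner genes, and 8.15% of all tested genes. EZH2 at 0.84 stood beside the other Polycomb repressive complex 2 genes, which ran from -0.55 to 0.20; those of highest CPM, RBBP7 and RBBP4, were at -0.22 and 0.08. KMT2C and PAXIP1, at 1.00 and 0.82, stood beside partners between -0.18 and 0.14, with the alternative catalytic subunit KMT2D at 0.14 and NCOA6 at -0.18.

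**Figure D5:**
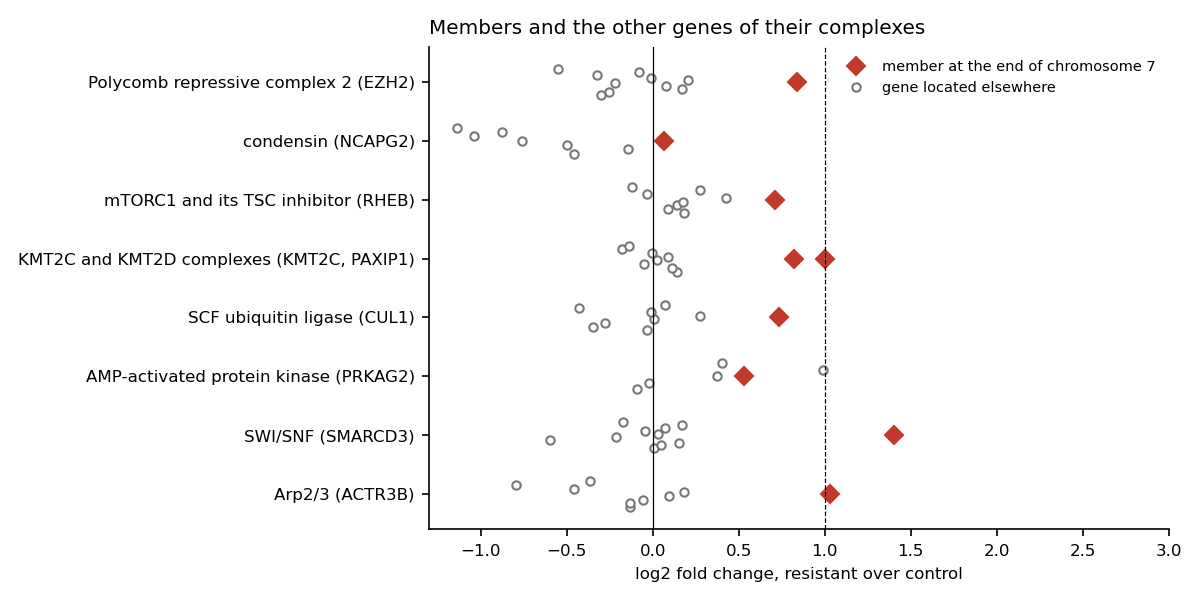
Log2 fold change, resistant over control, of members (red diamonds) and of the other genes of their complexes, located elsewhere (open circles), for 8 of the complexes. The condensin row also holds genes of condensin I, a separate complex from that of NCAPG2. The open circles centre near 0 in most rows and left of it for condensin, whereas the diamonds lie from 0.06 (NCAPG2) to 1.40 (SMARCD3).

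The same held for RHEB at 0.71, where the mTORC1 and TSC genes ran from -0.12 to 0.43, with TSC2 at 0.27 and AKT1S1 at 0.18. CUL1 at 0.74 stood beside SCF partners from -0.43 to 0.27, with FBXW11 at -0.01 and CAND1 at -0.43. SMARCD3 at 1.40 was set against SWI/SNF genes from -0.60 (SMARCC1, edgeR adjusted p = 0.213, DESeq2 adjusted p = 0.0936) to 0.17, and the catalytic subunit gene SMARCA4 was at 0.01. ACTR3B at 1.03 stood beside Arp2/3 genes from -0.80 to 0.18, with ACTR2 at -0.13, ARPC2 at 0.18 and ARPC4 lowest (edgeR adjusted p = 0.0682, DESeq2 adjusted p = 0.0020). In each of these comparisons the member had a higher log2 fold change than any of its partners, which was not tested as a difference. The members come from a block picked as higher in this same contrast and the partners do not, so nothing is read from this.

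AMP-activated protein kinase differed from that picture. PRKAB2, a regulatory subunit gene, was at 0.99 (edgeR adjusted p = 0.200, DESeq2 adjusted p = 0.0359), above PRKAG2 at 0.53, while the catalytic PRKAA1 was at -0.09. NCAPG2 was near 0, at 0.06, and all 7 other condensin genes listed had negative values, with a median of -0.76. The list mixes condensin I and condensin II, and NCAPD2, NCAPG and NCAPH belong to condensin I, not to the complex of NCAPG2. NCAPD2 had 161 and 210 CPM in resistant cells against 481 and 281 CPM in control cells (log2 -1.04, edgeR adjusted p = 0.138, DESeq2 adjusted p = 0.0106), and NCAPH was lowest at -1.14 (edgeR adjusted p = 0.118, DESeq2 adjusted p = 0.0062). DESeq2 also called NCAPG (adjusted p = 0.0269) and SMC4 (adjusted p = 0.0416) lower. NCAPD3 and NCAPH2, subunits of condensin II like NCAPG2, were at -0.46 and -0.15. SMC2 and SMC4, which both complexes share, were at -0.50 and -0.76. The 7 listed condensin genes summed to 468 and 483 CPM (without TMM factors) in the resistant libraries. In control replicates 1 and 2 they summed to 994 and 631 CPM, so the controls differed from each other as well.

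The genes set aside by name showed the same mixture. BRAF had 118 and 148 CPM in resistant cells against 49.5 and 63.1 CPM in control cells (log2 1.24). ABCB8 was at 1.27, ABCF2 at 1.31 and GALNT11, an O-glycosylation enzyme gene, at 0.57. PDIA4, an endoplasmic reticulum chaperone, stood at 1.97 with 891 and 400 CPM in resistant cells against 157 and 171 CPM in control cells. INSIG1, a brake on cholesterol synthesis, stood at -0.66 with 33.4 and 34.0 CPM in resistant cells against 74.5 and 32.2 CPM in control cells.

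At the level threshold the lowest members were MGAM, KEL and EPHA1, with a mean over the 4 libraries of 1.18, 1.5 and 2.28 CPM (without TMM factors, as the threshold was set). MGAM, the maltase-glucoamylase gene, had 2.34 and 0.956 CPM in resistant cells against 0.643 and 0.716 CPM in control cells, and its log2 fold change of 1.27 was 0.50 without resistant replicate 1 and 1.78 without resistant replicate 2. KEL, a blood group antigen gene, had 1.97 and 1.27 CPM in resistant cells against 0.810 and 1.92 CPM in control cells, at 0.24, with 1.00 without control replicate 2 and -0.25 without control replicate 1. CNTNAP2 likewise moved to 1.42 without control replicate 2 and 0.21 without control replicate 1. EPHA1, an ephrin receptor gene, was at 0.87. MGAM and PTPRN2 reached the threshold through the resistant libraries alone, so these 2 had to be higher there. Just under the threshold were KCNH2, SHH and GBX1, with means of 0.984, 0.975 and 0.709 CPM.

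The 73 coding genes of the window under 1 CPM included 14 olfactory receptors, 6 taste receptors, 4 PRSS genes and 7 GIMAP entries. PRSS1 and PRSS2 are the trypsinogens among the PRSS genes, and the GIMAP entries include the joint locus GIMAP1-GIMAP5. Of the 73 genes, 8 had no count in any library. Together the 73 genes summed to 15.8 and 10.5 CPM (without TMM factors) in the resistant libraries, against 5.59 and 9.56 CPM in the controls. Resistant replicate 2 and control replicate 2 were close to each other in this sum, unlike in the sum over members.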

How the data were processed

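The authors deposited 1 file of unnormalised counts per library, made with featureCounts 2.0.0 and GENCODE release 42, per the file headers; STAR, DESeq2 and GRCh38 are named in the submitters' processing notes. Libraries were polyA-selected, strand-specific and paired-end, per the labels' protocols. With the options in the headers, featureCounts ignores strand, counts mates singly and drops reads shared by genes or places, so a gene and its antisense partner cannot be told apart.

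Gene types came from GENCODE release 29 and RefSeq (62625 of 62649 identifiers matched a symbol, 58225 a release 29 type). Genes passing filterByExpr (24961) entered edgeR 4.0.16's quasi-likelihood F test with TMM factors (R 4.3.3, limma 3.58.1), two-sided, Benjamini-Hochberg adjusted, threshold 0.05, group as the sole term; all 72 members passed the filter. The biological coefficient of variation was 25.5%. SE was derived from the fitted log2 value and the F statistic. TPM were computed from counts and gene lengths. The edgeR step was tested on simulated counts. DESeq2 1.42.0, other normalisations and filters, a replicate block, control replicate 1 halved, leaving out each library and a minimum of 3 CPM were alternatives.

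The text names the departing members, the 4 members of highest TPM per role list, the 6 genes at each edge, the 3 members nearest the median and the 3 genes on either side of the level threshold. It also names the genes set aside and, per partner list, called genes and the 2 of highest CPM; other partners and members are named after their values were seen. Members and lists were chosen with earlier results of these data known. A table of log fold changes without a header was not used here. Some genes that these rules name, and 1 of the partner lists, are not reported here.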

Additional observations from a re-analysis of the deposited data

How the results depend on the processing

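The number of genes called by edgeR (272) was 1332 with DESeq2, 1866 with no filter on low counts and 64 with the replicate block, and ran from 16 to 2166 with 1 library left out; the cause was not tested. Same-numbered libraries did not deviate together (r = -0.01 over 10088 genes), so the numbers were not taken to pair them. The median log2 fold change of the members (0.96) was 0.98 both with library totals alone (0.975) and with no filter (0.976), 0.95 with the replicate block, and 0.93 to 0.96 with 1 library left out. That of the flank at 130 to 140 Mb (0.06) was 0.088 with library totals alone, 0.083 with no filter, 0.089 at a minimum of 3 CPM, and 0.0247 to 0.0786 with 1 library left out. Partner genes called (0) were 6 with DESeq2, 6 with no filter, and 0 to 9 with 1 library left out, the 9 without control replicate 2. Positive members numbered 61 of 64 at a minimum of 3 CPM and 68 or 69 of 72 in the alternatives that kept all members, and the ratio of summed CPM stayed between 1.76 and 1.84. Under the alternatives 68 members kept their sign throughout, and 35 of 648 values of single members moved by more than the spread between replicates, none of the called ones to the other side of 0. The scatter across genes was larger in the members under 20 CPM (SD 0.84) than in the others (0.35); what depth adds to it was not tested.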

Other observations

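Noncoding genes of the window, which the choice of members did not include, had values like those of the coding genes. Of these genes 21 had a mean of at least 1 CPM, and all 21 had a positive log2 fold change, with a median of 0.98 and quartiles of 0.68 and 1.16. Both resistant libraries lay above both controls in 19 of them, where 22.4% of all tested genes did so. REPIN1-AS1, ETF1P2 and PRKAG2-AS1 averaged under 1 CPM in the controls and reached the threshold through the resistant libraries alone, so these 3 had to be higher there, and the counts above are no support for a shift. The genes share the segment and the libraries with the members, so this is not independent of the observation that drew attention to it.

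Farthest from 0 was PRKAG2-AS1, a transcript antisense to PRKAG2, with 3.49 and 4.10 CPM in resistant cells against 1.01 and 0.531 CPM in control cells, a log2 fold change of 2.31 ± 0.39 (SE). KDM7A-DT, which starts next to KDM7A on the opposite strand, had 12.2 and 14.4 CPM in resistant cells against 2.18 and 4.76 CPM in control cells (1.94), beside KDM7A at 1.73. INSIG1-DT, the divergent neighbour of INSIG1, was at 0.24 and FAM131B-AS2, an antisense transcript that ends next to ZYX, at 0.15. In the last 2 the groups overlapped. MNX1-AS1 at 1.18 and LINC01003 at 1.16 were nearer to a doubling, and PAXIP1-AS2 and PAXIP1-DT were at 0.97 and 1.16, beside PAXIP1 at 0.82. These genes were picked out after their values were seen.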
